A study of Mus musculus with 2 samples.

Results

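The variable (V) genes of the alpha and beta chains of the T cell receptor were followed in CD8 T cells from CT26 tumors. Members were all genes whose symbol begins with Trav or Trbv, which gave 165 of the 33696 listed genes, 130 Trav and 35 Trbv. CD8 T cells were cells with 2 or more unique molecular identifiers (UMIs, each standing for 1 captured RNA molecule) of Cd3d, Cd3e and Cd3g together and 1 or more UMI of Cd8a and Cd8b1 together. By this rule 674 of 7163 cells of the untreated (UT) library and 1080 of 6776 cells of the BUP library were CD8 T cells, 1754 of 13939 in all. The tumors were of CT26, a colon carcinoma line of the mouse, and grew under the skin of male BALB/c mice aged 6 to 8 weeks. UT mice received no treatment, and BUP mice received BUP-Gel, a hydrogel loaded with 40 mg/kg of the local anesthetic bupivacaine. For each group 3 tumors were pooled into 1 library of 5' gene expression, from sorted live CD45+ (immune) and CD45- cells mixed at 4 parts to 1 by the labels and at 3 parts to 1 by the study's methods.

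Each T cell builds its receptor by cutting and joining DNA. An alpha chain gene is made from a V and a J segment, and a beta chain gene from a V, a D and a J segment, and the joined segments are spliced to a constant segment (Trac for alpha, Trbc1 or Trbc2 for beta). A mature T cell and all its daughters keep the same joins, so the V genes a cell transcribes are inherited marks of its lineage. The V segment encodes most of the variable domain, which together with the CDR3 loop formed at the join contacts peptide and MHC. CDR3 sequences were not read here, so cells with the same pair of V genes need not be of 1 clone.

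V genes are cut at a recombination signal that begins directly after the coding end with a heptamer whose standard form is CACAGTG. The ends of the V exons on which the results turn are shown 5' to 3' in the coding direction, with the last 60 bases of the exon in lower case and the 7 bases after it in capitals, from the mouse genome GRCm39. They are the leading UT beta gene Trbv1 (chr6:40868760-40868826, plus strand), the leading BUP beta gene Trbv13-1 (chr6:41093343-41093409, plus strand), Trbv2 (chr6:41024870-41024936, plus strand), Trbv29 (chr6:41248756-41248822, plus strand), Trbv31 (chr6:41534620-41534686, minus strand), Trav10 (chr14:53743684-53743750, plus strand), Trav21-dv12 (chr14:54114150-54114216, plus strand) and Trav3-3 (chr14:53903904-53903970, plus strand).
Trbv1: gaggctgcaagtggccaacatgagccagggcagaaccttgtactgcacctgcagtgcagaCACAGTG
Trbv13-1: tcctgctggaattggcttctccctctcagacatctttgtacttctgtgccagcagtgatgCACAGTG
Trbv2: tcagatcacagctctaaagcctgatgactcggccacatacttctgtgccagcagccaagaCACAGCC
Trbv29: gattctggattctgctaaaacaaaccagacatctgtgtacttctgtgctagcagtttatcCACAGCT
Trbv31: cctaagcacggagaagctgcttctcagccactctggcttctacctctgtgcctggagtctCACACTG
Trav10: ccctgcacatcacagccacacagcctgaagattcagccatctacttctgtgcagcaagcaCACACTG
Trav21-dv12: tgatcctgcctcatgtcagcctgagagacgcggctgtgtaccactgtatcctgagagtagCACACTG
Trav3-3: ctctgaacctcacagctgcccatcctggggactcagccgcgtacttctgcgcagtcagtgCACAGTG
Of the 132 members annotated as V genes rather than pseudogenes, 100 carried CACAGTG at this place and 128 began with CAC. Among the 8 shown, Trbv1, Trbv13-1 and Trav3-3 held the standard heptamer and the other 5 a variant of it. A match of letters is a description of the reference genome, which is of the C57BL/6J strain, whereas the mice were BALB/c.

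Trav3-1 and Trav3-4, whose shares differed in opposite directions between the libraries, differ at only 6 of 291 bases of their V exons. The exons of Trav3-1 (chr14:52818380-52818670, plus strand) and Trav3-4 (chr14:54014743-54015033, plus strand) are shown in full to let the genes be compared, with the bases that differ in capitals. Single reads were not examined, and the leader exons were not compared.
Trav3-1: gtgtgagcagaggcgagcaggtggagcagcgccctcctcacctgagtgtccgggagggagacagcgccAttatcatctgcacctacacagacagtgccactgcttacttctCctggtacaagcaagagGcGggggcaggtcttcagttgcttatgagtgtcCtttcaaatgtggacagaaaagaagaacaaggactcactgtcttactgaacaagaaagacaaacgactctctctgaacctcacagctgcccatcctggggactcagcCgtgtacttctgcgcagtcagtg
Trav3-4: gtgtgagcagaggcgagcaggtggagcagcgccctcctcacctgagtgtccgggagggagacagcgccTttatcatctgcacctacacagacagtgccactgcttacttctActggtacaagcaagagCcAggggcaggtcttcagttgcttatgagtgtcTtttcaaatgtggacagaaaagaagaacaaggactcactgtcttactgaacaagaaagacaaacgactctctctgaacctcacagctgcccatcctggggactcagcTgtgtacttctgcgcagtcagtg

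The class set by the rule was read for markers of other cell types. The 5 CD8 T markers are the genes of the rule itself, so their detection in both libraries is no check of it. They summed to 3240 CPM (UMIs after scaling the class to a sum of 1000000) in UT and 3121 in BUP. CD4 T markers summed to 13.5 CPM in UT and 5.30 in BUP, and B cell markers to 1.39 and 0.672 CPM, with 1 of 3 B markers at 0 in BUP. Macrophage markers (7 of 7 detected) summed to 10637 CPM in UT and 8444 CPM in BUP, neutrophil markers (3 of 3) to 982 and 2065 CPM, and NK markers (3 of 3) to 54.0 and 70.2 CPM. Macrophage markers thus exceeded CD8 T markers in both libraries. Cells with 3 or more C1q and Lyz2 UMIs made up 67.8% of UT and 42.4% of BUP CD8 T cells. Whether these were mixed barcodes or cells with free RNA was not tested. Median depth was 10165 UMIs per CD8 T cell in UT and 9404.5 in BUP. Of 76 barcodes present in both libraries, 0 belonged to CD8 T cells. Because each group is 1 library pooled from 3 tumors, tumors could not be told apart and no test between groups was possible. Intervals are exact, at 95%, and cover counting error only.

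T cell receptor V transcripts were abundant in the CD8 T cells and nearly absent from macrophages and tumor cells without a Cd3 UMI. A Trbv UMI was found in 91.5% of UT and 87.1% of BUP CD8 T cells. In macrophages, which do not rearrange these genes, the share was 1.92% (UT, median depth 13940 UMIs) and 1.21% (BUP, 13154 UMIs), and in tumor cells 1.29% and 0.550%. With every cell thinned to 2000 UMIs the shares were 68.6% and 65.6% of CD8 T cells against 0.343% and 0.352% of macrophages. Macrophages and tumor cells were chosen to have no Cd3 UMI, which leaves out cells that had taken up T cell RNA of that kind. Their shares may therefore lie below the level that free RNA reached in cells without a receptor.

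The summed level of the V genes differed little between the libraries. Trav genes held 3327 UMIs in UT and 5387 in BUP, 385 and 402 CPM, which is a BUP over UT ratio of 0.06 on the log2 scale (0.00 to 0.13). Trbv genes held 7858 and 10449 UMIs, 909 and 779.8 CPM (log2 ratio -0.22, interval -0.26 to -0.18). The Trav ratio was -0.069 without cells carrying 3 or more C1q and Lyz2 UMIs and -0.024 without cycling cells, so its direction was not stable. Per cell, UT CD8 T cells carried 4.94 Trav and 11.7 Trbv UMIs, and BUP CD8 T cells 4.99 and 9.67.

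Which members carried those UMIs was uneven. At least 1 UMI was found for 92 of the 165 members, 70 of 130 Trav and 22 of 35 Trbv genes, and 73 members were at 0. Both libraries held 74 of them, UT alone 10 and BUP alone 8, and all 18 that were seen in 1 library were Trav genes. Of 33 members annotated as pseudogenes, 6 had a UMI, with a maximum of 18 for Trav9n-1 among Trav and 17 for Trbv24 among Trbv. The Trav locus holds near-identical copies, named with d or n in their symbols, and 40 Trav genes have a V exon identical to another's. Those 40 genes held only 2 of 8714 Trav UMIs, so a low count for them says little, since a read that matches copies equally well may not be counted for any.

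Single members differed between the libraries far more than their sum. Of 40 members with 50 or more UMIs over both libraries, 13 were at least 2-fold higher in BUP (8 Trav, 5 Trbv) and 11 at least 2-fold lower (7 Trav, 4 Trbv), 32.5% and 27.5%. Among all 11859 genes with as many UMIs, 1.23% were higher and 0.885% lower by as much. The median absolute log2 ratio was 1.60 over the 40 members and 0.16 over all genes. These counts describe 2 pools of tumors, and whether other pools would differ as much could not be tested.

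Among members with 200 or more UMIs, Trbv1 had the lowest ratio of BUP over UT. It held 3092 UMIs in UT and 190 in BUP, 358 against 14.2 CPM (log2 ratio -4.66, interval -4.88 to -4.45), and 199 UT cells against 14 BUP cells had a UMI of it. Trav3-4 followed with 643 and 90 UMIs, 74.4 and 6.72 CPM (log2 ratio -3.47, interval -3.80 to -3.15). Both genes were spread over many UT cells, since the 5 cells with most UMIs held 8.64% of Trbv1 and 13.8% of Trav3-4 UMIs. Trbv14 (238 and 79 UMIs, log2 ratio -2.22), Trav7-4 (197 and 94, -1.70) and Trbv15 (269 and 163, -1.36) were also lower in BUP. Trbv14 and Trbv15 rested on few cells, as 5 cells held 65.5% and 52.0% of their UT UMIs and 89.9% and 77.3% of their BUP UMIs.

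Among members with 200 or more UMIs, the 5 highest in BUP over UT were 2 beta and 3 alpha genes. Higher ratios rested on fewer UMIs, as for Trav15-2-dv6-2 (3 and 153 UMIs), Trbv26 (3 and 98), Trbv30 (4 and 111) and Trav10n (13 and 148). Trav10 held 29 UMIs in UT and 279 in BUP, a log2 ratio of 2.63 (2.08 to 3.24), and was found in 11 UT and 134 BUP cells. Trbv29 held 178 and 1437 UMIs, a log2 ratio of 2.38 (2.16 to 2.61). Trbv13-1 held 573 and 3611 UMIs, 66.3 against 269 CPM (log2 ratio 2.02, interval 1.90 to 2.15). Trbv13-1 was the most abundant member of the BUP library, as Trbv1 was of the UT library. Trav3-1 (221 and 1137 UMIs) and Trav21-dv12 (222 and 1080 UMIs) had log2 ratios of 1.73 (1.52 to 1.95) and 1.65 (1.44 to 1.86). In BUP none of these 5 genes rested on a handful of cells, with 6.59% to 11.4% of their UMIs in the 5 richest cells.

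Cells were then counted rather than UMIs. A cell was assigned the V gene that had 2 or more UMIs and more than 50% of the cell's UMIs of that chain, with d and n copies of a Trav gene counted as the gene of the plain name. A Trbv gene was assigned to 537 UT cells (79.7%, 76.4 to 82.7%) and 809 BUP cells (74.9%, 72.2 to 77.5%), and a Trav gene to 445 (66.0%) and 700 (64.8%). Shares below are of assigned cells.

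The leading beta gene was Trbv1 in UT and Trbv13-1 in BUP. Trbv1 was assigned to 186 UT cells, 34.6% (30.6 to 38.8%), and to 11 BUP cells, 1.36% (0.681 to 2.42%), a difference of -33.3 points (-37.5 to -29.1). Trbv13-1 was assigned to 36 UT cells, 6.70% (4.74 to 9.16%), and 251 BUP cells, 31.03% (27.9 to 34.3%), a difference of 24.3 points (20.3 to 28.2). Without cells carrying macrophage UMIs these differences were -30.4 and 18.9 points. Trbv31 went from 16.0% to 6.43% and Trbv19 from 12.7% to 8.41%. Trbv2 went from 4.66% to 14.0%, Trbv29 from 2.98% to 11.1% and Trbv13-3 from 5.59% to 10.1%. The intervals of all 5 of these differences leave out 0. For Trbv31 this holds for assigned cells only, since a UMI of Trbv31 was present in 14.1% of UT and 13.8% of BUP CD8 T cells, and 2 or more UMIs in 88 of 674 and 132 of 1080, of which 103 of the 132 also had 2 or more of Trbv29. Trbv13-2 was at 5.03% and 5.93%, and the interval of its difference, -1.78 to 3.42 points, holds 0. The 3 genes of the Trbv13 group thus differed unequally between the libraries, although their V exons are 86.1% to 91.8% identical.

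**Figure D1:**
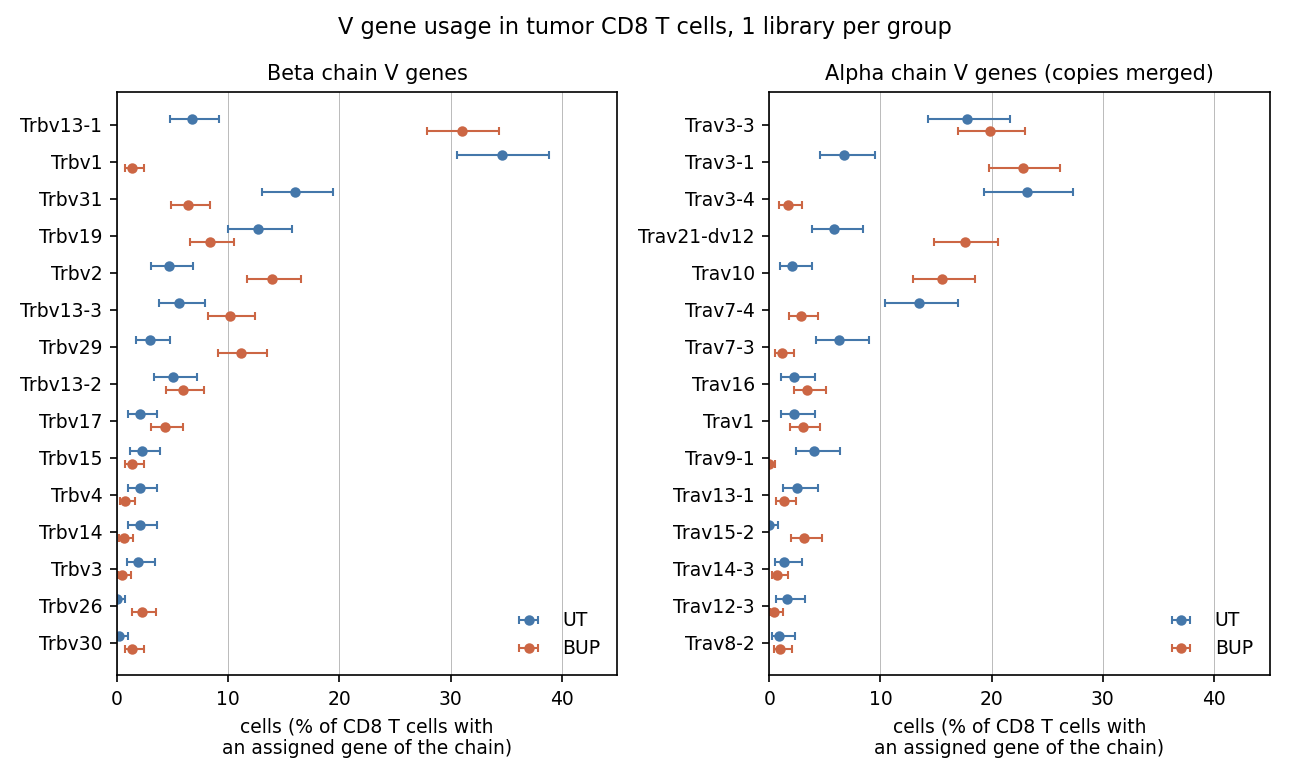
Share of assigned CD8 T cells (x axis, percent) for each beta V gene (left) and each alpha V gene with copies merged (right), UT in blue and BUP in red, 1 library per group. Points are shares and bars exact 95% binomial intervals. Trbv1 and Trav3-4 lead in UT at 34.6% and 23.1%, and Trbv13-1 and Trav3-1 lead in BUP at 31.03% and 22.9%.

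The leading alpha gene was Trav3-4 in UT and Trav3-1 in BUP. Trav3-4 was assigned to 103 UT cells, 23.1% (19.3 to 27.3%), and 12 BUP cells, 1.71% (0.889 to 2.98%). Trav3-1 was assigned to 30 UT cells, 6.74% (4.59 to 9.48%), and 160 BUP cells, 22.9% (19.8 to 26.2%). Trav7-4 went from 13.5% to 2.86% and Trav7-3 from 6.29% to 1.14%, whereas Trav21-dv12 went from 5.84% to 17.6% and Trav10 from 2.02% to 15.6%. Trav3-3 was common in both libraries, at 17.8% of UT and 19.9% of BUP cells, with a difference of 2.10 points (-2.73 to 6.77). That difference was -6.86 points without cells that had 2 Trbv genes, -4.01 points under a stricter assignment and -0.737 points without cells carrying macrophage UMIs.

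UMIs counted for Trav3-1 and Trav3-4 were found mostly in separate cells. In the 103 UT cells assigned Trav3-4, Trav3-4 held 611 UMIs and Trav3-1 18, or 2.53% of the cells' Trav UMIs. In cells assigned Trav3-1, Trav3-4 held 0 UMIs in UT and 1 in BUP. Trav3-3 differs from either at 28 of 291 bases, and cells assigned Trav3-3 held 0 UMIs of both in both libraries. Copies were separated less well, as Trav10 held 279 BUP UMIs beside 148 of Trav10n and 68 of Trav10d, whose V exons are 98.3% and 99.3% identical to that of Trav10. Trav7d-4, with 1 difference in 292 bases from Trav7-4, held 125 UT and 13 BUP UMIs beside 197 and 94 of Trav7-4. Because V alleles and copies can differ between BALB/c and the C57BL/6J reference, each Trav or Trbv name given here for a count, share or pair is that of the reference gene to which the reads were assigned, which may be only the nearest one.

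The same number of V genes was assigned in both libraries. In each, 18 Trbv genes were assigned, and the inverse Simpson index, the number of equally common genes that would give the same evenness, was 5.70 in UT and 6.45 in BUP. For the alpha chain 30 genes were assigned in each library, with indices of 8.46 and 6.64. In equal numbers of 445 cells the BUP library would hold 26.6 Trav genes. With all genes of a Trav subgroup taken as 1 gene, a choice made after the values had been seen, the indices were 3.65 and 3.91.

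Both chains were assigned in 373 UT cells (55.3%) and 594 BUP cells (55.0%), which allowed the V genes to be read as pairs. In UT the pair Trav3-4/Trbv1 was the most frequent, with 92 cells or 24.7% (20.4 to 29.4%) of paired cells. In BUP it was Trav3-1/Trbv13-1, with 154 cells or 25.9% (22.4 to 29.6%). Neither leading pair was found in the other library. Trav3-4/Trbv1 had 0 of 594 BUP cells, which leaves room for a share of up to 0.619%, and Trav3-1/Trbv13-1 had 0 of 373 UT cells, for which the upper limit is 0.984%.

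The next pairs also differed. In UT, Trav7-4/Trbv1 held 33 cells (8.85%), Trav7-3/Trbv31 and Trav7-4/Trbv31 23 each (6.17%) and Trav3-1/Trbv31 20 (5.36%). BUP held 0, 6, 0 and 0 cells of these pairs. In BUP, Trav3-3/Trbv29 held 73 cells (12.3%), Trav10/Trbv2 65 (10.9%), Trav21-dv12/Trbv13-3 55 (9.26%) and Trav3-3/Trbv31 29 (4.88%), against 13, 8, 2 and 2 UT cells. The BUP minus UT difference of Trav3-3/Trbv29, 8.80 points, was 0.300 points without cells that had 2 Trbv genes and -0.390 points under the stricter assignment, so its direction was not stable. Both libraries thus used Trav3-1 in cells of 1 leading partner each, Trbv31 in UT and Trbv13-1 in BUP. The 5 most frequent pairs held 51.2% of UT and 63.3% of BUP paired cells, and the inverse Simpson index over pairs was 11.5 and 9.10. In BUP these values count Trav3-3/Trbv29 and Trav3-3/Trbv31 as separate pairs. However, 58 of the 73 and 26 of the 29 cells had 2 or more UMIs of the other pair's beta gene.

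**Figure D2:**
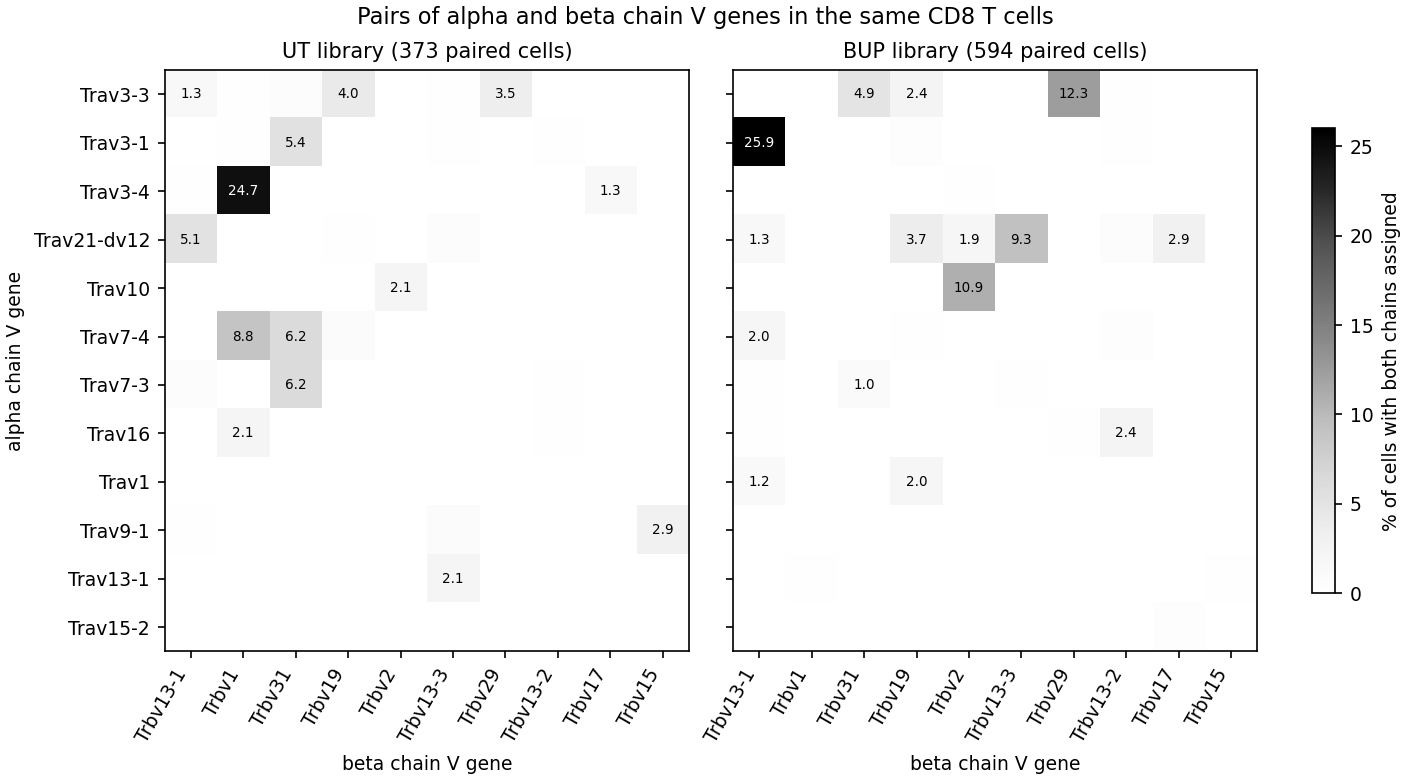
Percent of CD8 T cells with both chains assigned (gray scale) for each pair of alpha V gene (rows) and beta V gene (columns), in UT (373 cells, left) and BUP (594 cells, right); values of 1% and over are printed. The darkest squares are Trav3-4/Trbv1 in UT at 24.7% and Trav3-1/Trbv13-1 in BUP at 25.9%, and each is empty in the other library.

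Some pairs were common to both libraries. Of 63 UT pairs and 60 BUP pairs, 16 were found in both, 25.4% and 26.7% of each list, but 31 of the UT and 29 of the BUP pairs rested on 1 cell, and in 373 cells BUP would hold 48.2 pairs. These pairs held 95 UT cells (25.5%) and 300 BUP cells (50.5%). Only 5 of the 16 had 5 or more cells in each library, namely Trav10/Trbv2 (8 and 65 cells), Trav21-dv12/Trbv13-1 (19 and 8), Trav3-3/Trbv19 (15 and 14), Trav3-3/Trbv29 (13 and 73) and Trav7-3/Trbv31 (23 and 6). Since the 3 mice of a pool cannot be told apart, whether a frequent pair came from 1 mouse or from several is unknown.

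Some cells held UMIs of 2 beta V genes, and whether these were single cells or mixed barcodes was not tested. A cell was counted here when its second Trbv gene had 2 or more UMIs and at least 25% as many as the first, which held for 53 UT cells (7.86%, 5.95 to 10.2%) and 149 BUP cells (13.8%, 11.8 to 16.0%). Their median depths, 10729 UMIs in UT and 9441 in BUP, lay close to the 9994 and 9377 UMIs of the other cells. The most frequent combination was Trbv29 with Trbv31, chosen for a closer account after its values had been seen. Cells with 2 or more UMIs of both Trbv29 and Trbv31 numbered 103 in BUP and 0 in UT, where 18 cells had Trbv29 alone and 88 Trbv31 alone. In BUP 30 cells had Trbv29 alone and 29 Trbv31 alone, and independent use of the genes would have put 16.3 cells in the double class.

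The double Trbv29 and Trbv31 cells shared further V genes. A Trav gene was assigned in 94 of the 103, and it was Trav3-3 in all 94. A UMI of Trav4-4-dv10, or of a copy of it, was present in 62 of the 103, against 15 of the other 977 BUP cells. The median cell of the class held 10 Trbv29 and 8 Trbv31 UMIs, at a median depth of 9428 UMIs. Trbv31 lies 3' of Trbc1, at a distance of 17.8 kb, on the opposite strand from the other V genes shown, and 286 kb from Trbv29. Since the rule assigns such a cell to whichever gene leads, the class was divided between Trbv29 and Trbv31. Leaving out cells with 2 Trbv genes brought the BUP minus UT difference of Trbv29 from 8.15 to 1.27 points and that of Trbv31 from -9.59 to -12.5 points.

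**Figure D3:**
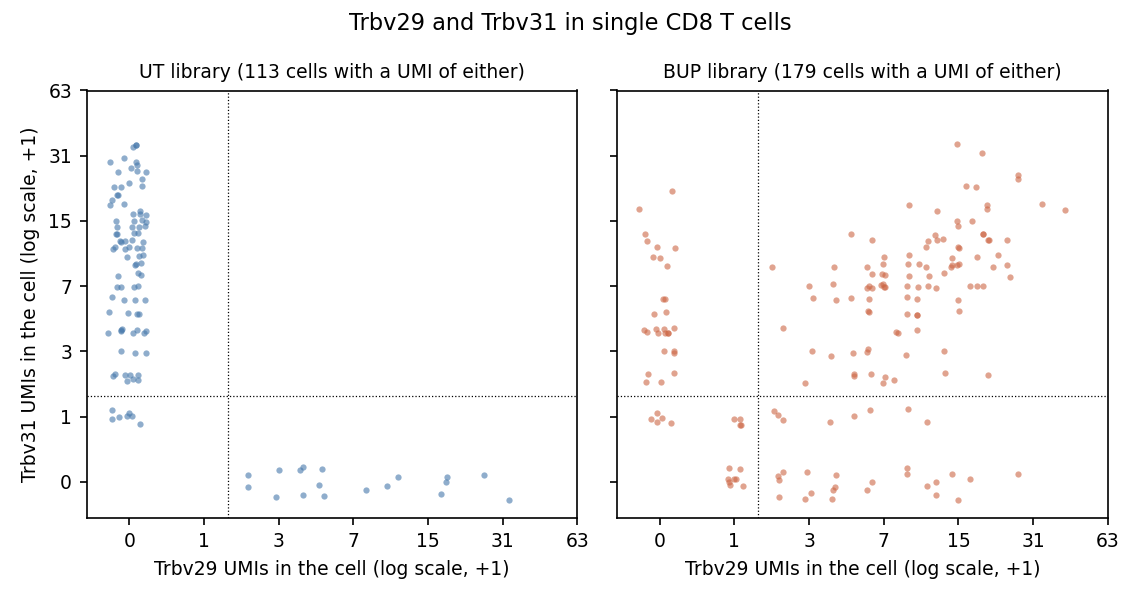
UMIs of Trbv29 (x axis) and Trbv31 (y axis) in each CD8 T cell with a UMI of either gene, on log scales of count plus 1, for UT (left, 113 cells) and BUP (right, 179 cells); points are jittered and dotted lines mark the limit of 2 UMIs. No UT cell lies in the upper right field, which holds 103 BUP cells.

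Other cells with a second V gene formed smaller classes, also looked at after the values had been seen. These classes, like that of Trbv29 with Trbv31, needed 2 or more UMIs of each gene and no minimum ratio. Their cells therefore need not be among those counted above as having 2 Trbv genes. In BUP, 40 cells had 2 or more UMIs of both Trbv13-1 and Trbv3, and all 40 were assigned Trav3-1. Trbv3 was the weaker gene there, with a median of 2 UMIs against 16 of Trbv13-1. In the 154 Trav3-1/Trbv13-1 cells Trbv3 held 143 UMIs beside 2313 of Trbv13-1. Both Trav21-dv12 and Trav3-3 had 2 or more UMIs in 40 BUP cells, of which 31 were assigned Trbv19, at a median depth of 15094.5 UMIs. In UT the largest beta combination was Trbv1 with Trbv19, at 14 cells, 9 of them assigned Trav7-4. Of the 33 UT Trav7-4/Trbv1 cells, 9 had 2 or more Trbv19 UMIs. Independent use of the genes would have given 25.8 cells. As few cells held 2 Trbv genes at all, the lower count is no sign that these 2 genes avoid each other.

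V genes of the gamma and delta chains, whose products pair in gamma-delta T cells, were found in some of these alpha-beta cells and were unevenly spread over the classes of Trav and Trbv genes. These genes are not members and were chosen after their values had been seen. Trdv1 had 2 or more UMIs in 47 BUP and 8 UT CD8 T cells. Of the 47, 42 were assigned Trbv13-1, and 38 of those had no assigned Trav gene. A UMI of Trdv1 was present in 40 of the 67 BUP cells with Trbv13-1 and no Trav, 59.7% (47.0 to 71.5%), against 2.60% of Trav3-1/Trbv13-1 cells and 54 of all 1080 BUP CD8 T cells. The 47 cells held 263 Trdv1 UMIs, 229 UMIs of the alpha constant gene Trac and 0 UMIs of the delta constant gene Trdc. In UT, 0 of the 8 Trdv1 cells were assigned Trbv13-1, and 0 of 8 UT cells with Trbv13-1 and no Trav had a Trdv1 UMI, a count that allows up to 36.9% of such cells.

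Gamma chain V genes were also uneven among the pairs. Trgv6 was detected in 33 of the 103 double Trbv29 and Trbv31 cells, 32.0% (23.2 to 42.0%), which held 86.0% of the Trgv6 UMIs of BUP CD8 T cells. Trgv2, found in 23.0% of all BUP CD8 T cells, was present in 56.3% of that class and in 53.4% of Trav3-3/Trbv29 cells. It was present in 3.08% (0.375 to 10.7%) of Trav10/Trbv2 cells and 1.82% (0.0460 to 9.72%) of Trav21-dv12/Trbv13-3 cells. In UT, Trgv2 was found in 20.8% of CD8 T cells and in 26.1% of Trav3-4/Trbv1 cells. It was present in 6 of 13 UT Trav3-3/Trbv29 cells (46.2%, 19.2 to 74.9%). The low share in Trav10/Trbv2 cells did not hold in UT, where 5 of 8 cells had a Trgv2 UMI (62.5%, 24.5 to 91.5%).

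**Figure D4:**
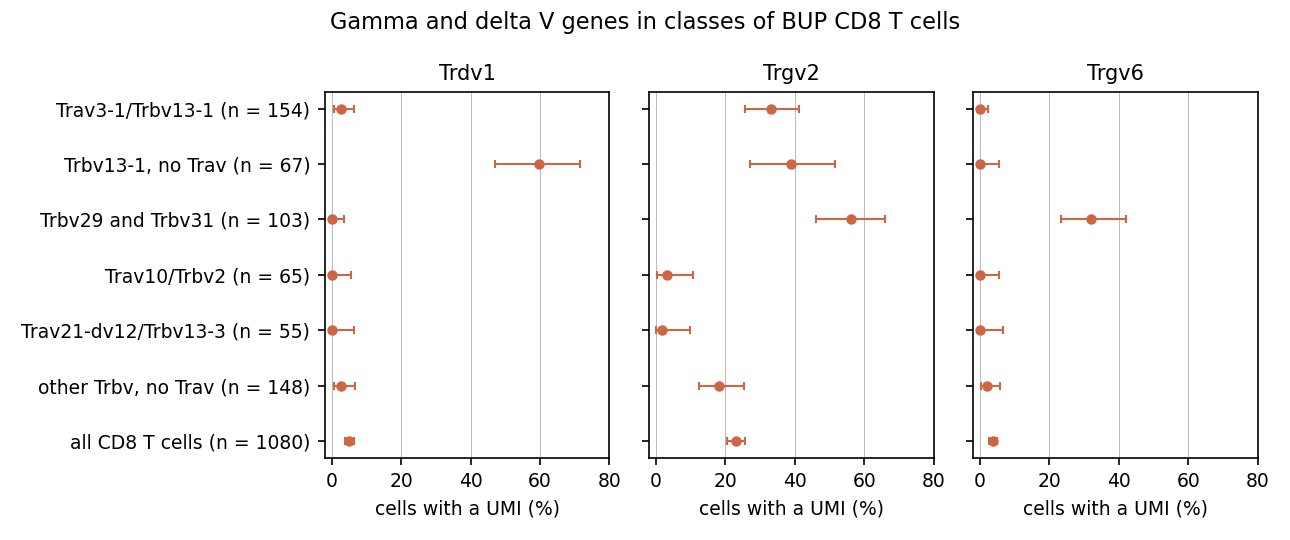
Percent of cells with a UMI (x axis) of Trdv1, Trgv2 and Trgv6 in classes of BUP CD8 T cells defined by their Trav and Trbv genes; points are shares and bars exact 95% binomial intervals. Trdv1 stands at 59.7% in Trbv13-1 cells without an assigned Trav, and Trgv6 at 32.0% in cells with both Trbv29 and Trbv31.

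The beta constant gene, which the pairs were not chosen by, differed between pairs of the same V gene. Trbc1 made up 38.3% (36.6 to 40.1%) of the Trbc1 and Trbc2 UMIs of UT CD8 T cells and 32.5% (31.1 to 33.9%) of those of BUP. In UT it made up 58.2% (54.0 to 62.4%) in Trav3-4/Trbv1 cells and 19.7% (13.7 to 27.0%) in Trav7-4/Trbv1 cells, although both use Trbv1. Among Trbv31 cells of UT it was 51.1% with Trav7-3, 16.7% with Trav7-4 and 9.84% with Trav3-1. In BUP it was 8.28% (5.86 to 11.3%) in Trav3-1/Trbv13-1, 2.97% (1.37 to 5.56%) in Trav21-dv12/Trbv13-3 and 40.3% (35.3 to 45.4%) in Trav10/Trbv2 cells. The share also differed between libraries within a pair. UT Trav10/Trbv2 cells had 0 Trbc1 and 14 Trbc2 UMIs (up to 23.2%). Trav3-3/Trbv29 cells were at 54.7% (41.7 to 67.2%) in UT and 23.7% (19.4 to 28.5%) in BUP. These intervals take UMIs as independent, although several can come from 1 cell. Trbc1 and Trbc2 are close copies of each other, and how well their reads were kept apart was not tested.

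**Figure D5:**
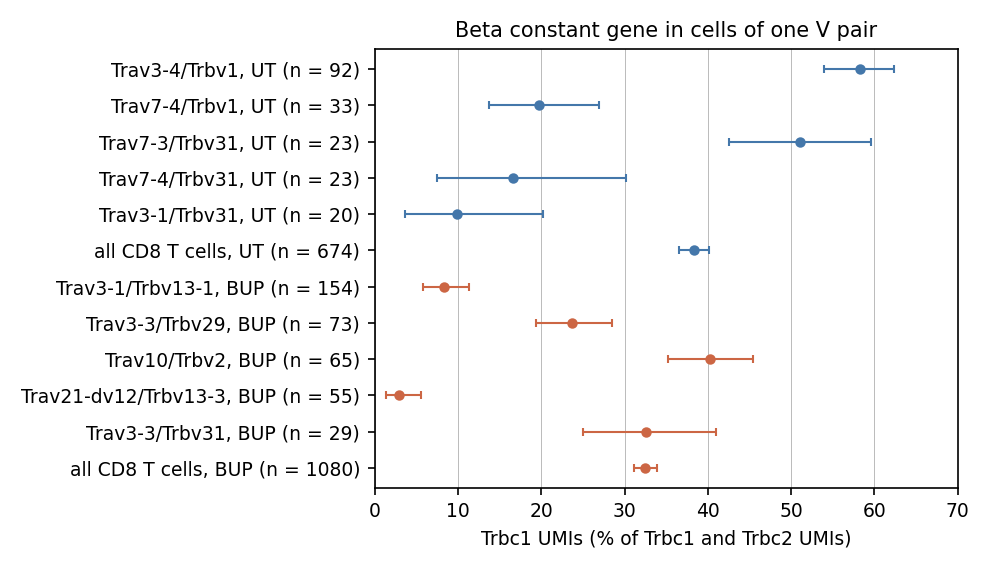
Trbc1 UMIs as a percent of Trbc1 and Trbc2 UMIs (x axis) in cells of the 5 most frequent pairs of each library and in all its CD8 T cells; points are shares and bars exact 95% binomial intervals over UMIs. Values run from 2.97% in Trav21-dv12/Trbv13-3 of BUP to 58.2% in Trav3-4/Trbv1 of UT.

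J segments gave few UMIs. Trbj genes summed to 131 UMIs in UT and 113 in BUP and Traj genes to 81 and 134, of which the 154 Trav3-1/Trbv13-1 cells held 14 Trbj and 18 Traj UMIs. The joins within a pair therefore could not be described at this depth.

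The genes of the receptor complex lay within 2-fold between the libraries, as did the signaling genes with a ratio, unlike many V genes. Of 7 complex genes (Trac, Trbc1, Trbc2, Cd3d, Cd3e, Cd3g and Cd247), 2 had intervals above 0 (Trac and Cd3d), 3 below 0 (Trbc1, Cd3e and Cd247), and 0 passed 2-fold. Trac, the alpha constant gene, stood at 216 CPM in UT and 234 in BUP, and Trbc2 at 208 and 218. Trbc1 stood at 129 CPM in UT and 105 in BUP (log2 ratio -0.31, interval -0.42 to -0.19), and Cd247, which encodes the signaling zeta chain, at 125 and 102 (-0.29, interval -0.41 to -0.17). Cd3d was at 410 and 435 CPM, Cd3e at 781 and 755, and Cd3g at 1002 and 999, where the interval of the ratio holds 0. These 3 Cd3 genes belong to the rule that set the class. Their levels in it are partly fixed by that choice and are no independent comparison. Of 15 signaling and recombination genes, 12 had a ratio, of which 3 had intervals above 0, 4 below 0 and 0 passed 2-fold. Over all 11859 genes with 50 or more UMIs, 1.23% were higher and 0.885% lower by 2-fold. How many of all genes have an interval that leaves out 0 was not counted, so the interval counts have no background. The other 3 genes of the signaling and recombination list had no ratio, as the recombinase genes Rag1 and Rag2 were at 0 UMIs in both libraries, and Dntt, the enzyme that adds bases at joins, at 0 in UT and 11 in BUP.

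Genes of T cell state were compared between the frequent pairs and all other paired cells of the same library. Of 19 such genes, 0 passed 2-fold in the leading BUP pair Trav3-1/Trbv13-1 and 2 in the leading UT pair Trav3-4/Trbv1, both lower. The share of all genes past 2-fold between a pair and the other paired cells was not counted. The 2 lower genes were Ccr7, a lymph node homing receptor, at 9.24 against 65.9 CPM (log2 ratio -2.83, -3.91 to -1.93), and Tcf7, a factor of less differentiated T cells, at 3 UMIs against 36. All 10 Ccr7 UMIs of that pair lay in 5 or fewer of its 92 cells. Low Ccr7 was not particular to it, as the log2 ratio was -3.09 in Trav7-4/Trbv31 of UT. In BUP it was -2.69 in Trav3-3/Trbv29 and -3.31 in Trav3-3/Trbv31. Most cells of these 2 BUP pairs, 58 of 73 and 26 of 29, had 2 or more UMIs of both Trbv29 and Trbv31. They are therefore not separate examples. Trav3-1/Trbv31 of UT went the other way (1.27), with all Ccr7 UMIs in 5 or fewer cells. Gzmk, a granzyme gene, was higher in Trav3-3/Trbv29 cells of BUP, at 146 against 63.5 CPM (log2 ratio 1.20, 0.90 to 1.50), and in Trav7-4/Trbv1 cells of UT, at 96.0 against 36.2 CPM (1.41, 0.82 to 1.95), where 5 cells held 72.7% of 33 UMIs. In the leading BUP pair Trav3-1/Trbv13-1 Gzmk was lower, at 42.5 against 84.5 CPM (log2 ratio -0.99, -1.31 to -0.68), just short of 2-fold. The 13 Trav3-3/Trbv29 cells of UT held 0 Gzmk UMIs (up to 22.8 CPM), against 40.4 CPM in all UT paired cells. Gzmb, the main cytotoxic granzyme, was at 2665 against 1200.3 CPM in Trav7-4/Trbv1 cells (1.15, 1.05 to 1.25), but 5 of the 33 cells held 66.8% of those UMIs. Ccr7 was at 137 against 42.9 CPM in Trav21-dv12/Trbv13-3 cells, all of it in 5 or fewer of the 55 cells, and at 0 UMIs in the 65 Trav10/Trbv2 cells. Trav3-1/Trbv13-1 cells held 121 Ccr7 UMIs, 79.3% of them in 5 cells. How far the low Ccr7 ratios rest on a few rich cells among the compared cells was not tested. Cells with 3 or more C1q and Lyz2 UMIs made up 69.6% of Trav3-4/Trbv1, 51.5% of Trav7-4/Trbv1, 51.3% of Trav3-1/Trbv13-1 and 37.0% of Trav3-3/Trbv29 cells, and their part in these values was not tested.

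Shares of V genes were compared between cycling and other cells within each library, and for the leading gene of each the interval of the difference holds 0. Cells with 3 or more UMIs of 8 cell cycle genes were called cycling, 278 of UT (41.2%) and 425 of BUP (39.4%), a range cut from a sum, with 111 and 149 cells within 1 UMI of the limit. Trbv1 was assigned to 33.9% of cycling and 35.1% of other UT cells, a difference of -1.22 points (-9.53 to 7.24). Trbv13-1 was assigned to 33.6% and 29.1% of BUP cells, a difference of 4.48 points (-2.15 to 11.2). Without cells carrying macrophage UMIs the Trbv1 difference was -16.7 points. The summed Trbv level was lower in cycling cells, at 820 against 1031 CPM in UT and 698 against 875 CPM in BUP, while cycling cells held more UMIs in all, with medians of 16164 and 14282 against 7244 and 7040.

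CD4 T cells (Cd3 genes as above, a Cd4 UMI and no Cd8a or Cd8b1 UMI) were few, 52 in UT and 32 in BUP, with a Trbv gene assigned in 36 and 16. Trbv1 and Trbv13-1 were compared because they led in CD8 T cells, so a lower share in another class follows partly from that choice. Trbv1 was assigned to 34.6% of UT CD8 T cells and 16.7% of UT CD4 T cells, a difference of 18.0 points (1.33 to 29.1), and Trbv13-1 to 31.03% and 12.5% in BUP, a difference of 18.5 points (-7.52 to 30.0) whose interval holds 0. In BUP, Trbv1 went the other way, at 1.36% of CD8 and 12.5% of CD4 T cells (-11.1 points, -37.0 to -0.140), on 2 CD4 T cells. Trbv13-2, at 5.03% of CD8, was at 19.4% of CD4 T cells in UT. Trbv31, at 6.43% of CD8, was at 31.3% of CD4 T cells in BUP, which is 5 of 16 cells. Trbv genes summed to 408 CPM in UT and 213 CPM in BUP CD4 T cells, below the 909 and 779.8 CPM of CD8 T cells.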

How the data were processed

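UMIs per gene and cell barcode had been counted by the authors with Cell Ranger (8.0.1 in the submitters' processing notes, which also name Seurat 5.0.1) against GRCm39, and the deposited values are whole-number counts with no normalization. As in the study's methods, barcodes needed over 100 UMIs and a mitochondrial share below 20%, and no doublet caller was run. The members, gene lists and tests were chosen with earlier results of these data known.

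Sums over CD8 T cells were scaled to CPM and given exact Poisson intervals, shares exact Clopper-Pearson binomial intervals, and log2 ratios the exact interval that holds for a fixed total of both counts. For differences of shares, limits of both shares were combined. With 1 library per group no test between groups and no p-value was possible. Depth was 8644434 UMIs over the UT and 13399606 over the BUP CD8 T cells, from 667 to 83877 UMIs per cell in UT and from 810 to 63763 in BUP. Fold changes were read for genes with 50 or more UMIs over both libraries.

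V genes named are those assigned in 5% or more of assigned cells of either library and the 5 highest and 5 lowest log2 ratios among members with 200 or more UMIs, with the 5 most frequent pairs of each library and the 7 receptor complex genes. Trbv29 with Trbv31, Trbv3, Trav copies, gamma and delta V genes and single state genes were named after their values had been seen. Macrophages were cells with 10 or more C1q UMIs and no Cd3 UMI, and tumor cells had 10000 or more UMIs and no Ptprc, Cd3 or C1q UMI.

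All 165 members were matched by gene ID to the GRCm39 annotation, from which V exons and sequences were read, and identities are from global alignments. Python 3.11.15, numpy 2.4.6, scipy 1.17.1, pandas 2.3.3, Biopython 1.88 and matplotlib 3.10.9 were used, and the calculation was tested on simulated data.

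Alternatives were no and a stricter barcode filter, a stricter CD8 T cell rule, cells with macrophage UMIs, with 2 Trbv genes or in cycle left out, other assignment limits, thinning to 2000 UMIs, other minimum counts, Trav copies separate or merged, other scalings and a J gene added to pairs. Trav subgroups as 1 gene and Trbv29 with Trbv31 as 1 class were added once values had been seen.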

Additional observations from a re-analysis of the deposited data

How the results depend on the processing

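No paired analysis was possible because each group is 1 library. Of 224 values of the 24 main results under the alternatives, 180 stayed within their interval or within 1.5 times, 42 went beyond and 2 changed sign, and the cause was not tested. The summed Trav log2 ratio was -0.069 without cells carrying macrophage UMIs, -0.024 without cycling cells and 0.13 scaled by the median ratio of genes, and the Trbv ratio was -0.45 without cells with 2 Trbv genes, -0.15 scaled by the median ratio and -0.27 per cell. The share of UT cells with an assigned Trbv was 86.1% from 1 UMI, 66.9% from 3 UMIs and 80% of the chain and 51.1% thinned, and in BUP 83.8%, 54.5% and 40.6%, with 78.5% under the stricter CD8 T cell rule and 71.8% without cycling cells. For Trav these shares were 78.3%, 42.0% and 23.0% in UT, with 73.3% without macrophage UMIs, and 78.1%, 42.5% and 23.2% in BUP, with 68.5% under the stricter rule, 61.3% without cells with 2 Trbv genes and 60.2% without cycling cells. Trav subgroups as 1 gene gave inverse Simpson indices of 3.65 and 3.91. The leading UT pair held 31.1% of thinned cells and the leading BUP pair 21.4% without macrophage UMIs and 39.6% under the stricter assignment. With a Trbj gene added, the largest class of any pair held 8.47% of the few UT cells and 10.5% of the few BUP cells that had one. In UT this class of 5 cells was not of the leading pair, whose cells held at most 3 UMIs of any Trbj gene. Cells with 2 Trbv genes were 1.36% and 4.94% when thinned. Members past 2-fold were 6 higher and 5 lower with 200 or more UMIs, 22 and 37 with 2 or more, and 22 lower with 20 or more. Without macrophage UMIs the cycling difference of Trbv1 was -16.7 points, and under the stricter assignment Trbv13-1 was 37.9 points higher in CD8 than CD4 T cells. State genes past 2-fold in Trav3-1/Trbv13-1 were 1 without macrophage UMIs and 2 without cycling cells. Thinned macrophages had a Trbv UMI in 0.343% and 0.352%. Of 232 values of the 25 named V genes and pairs 200 stayed within their interval and 1 called difference changed sign, that of Trav3-3/Trbv29, at -0.390 points under the stricter assignment, which leaves out cells split between Trbv29 and Trbv31.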
